A study of Mus musculus with 18 samples.

Results

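Embryos with an intermediate level of Tbx1 mRNA were compared with embryos at the full level, in a series of whole mouse embryos at embryonic day 9.5 that carry different combinations of Tbx1 alleles. The intermediate tier held the 4 arrays of Neo2/Neo and Neo2/- embryos, and the full tier held the 4 arrays of WT and Neo2/+ embryos, so that 8 of the 18 arrays of the series were used. Each of the 9 genotypes had 2 arrays, described in the labels as biological replicates, and all embryos were of a mixed 129SvEv and C57Bl/6 background. Tbx1- is a null allele, and Neo and Neo2 are hypomorphic alleles, which make less normal Tbx1 mRNA than the wild type. WT embryos carried 2 wild-type copies, Neo2/+ embryos a wild-type and a Neo2 copy, Neo2/Neo embryos both hypomorphic alleles and Neo2/- embryos a Neo2 copy over the null allele. No tissue-specific driver was involved, so every cell of an embryo carried its genotype. Litters, somite counts and sexes are not in the labels. The p-values set a difference against the spread between arrays of the same genotype, and they cover nothing beyond these embryos.

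The comparison was built to find genes that moved alike in both intermediate genotypes. The array carried 45037 probe sets, which are groups of short probes read as a single value. A probe set was counted as moving alike where its 4 intermediate arrays all lay above, or all below, its 4 full-tier arrays, and where the mean of each intermediate genotype differed from the full-tier mean by at least 0.5 on the log2 scale. This rule kept 46 of the 45037 probe sets (0.102%). The size alone, in both genotypes and in the same direction, was met by 117 (0.26%). The tiers were chosen on the Tbx1 signal of these arrays, and the members on the same values that the comparison between the tiers uses. Their membership, their directions and the Tbx1 difference are therefore descriptions, not tests.

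Tbx1 is a transcription factor with a T-box DNA-binding domain. It acts in the pharyngeal endoderm, the core mesoderm of the pharyngeal arches, the second heart field, the otic vesicle and the head mesenchyme. Loss of a TBX1 copy is the main genetic cause of the heart, parathyroid and thymus defects of DiGeorge syndrome, and mice show graded defects as the dose of Tbx1 is lowered. In a whole embryo at this stage, Tbx1-expressing cells are a small part of the tissue sampled.

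Tbx1 separated the tiers without overlap. Its signal was 6.54 and 6.63 in the WT arrays, 6.59 and 6.50 in the Neo2/+ arrays, 5.65 and 5.67 in the Neo2/Neo arrays and 5.61 and 5.81 in the Neo2/- arrays, all on the log2 scale. The intermediate mean was 0.88 lower than the full-tier mean (difference -0.88, SE 0.07), which is a fold of 1.84. The 2 intermediate genotypes were close to each other, at -0.90 and -0.86 from the full tier, and Neo2/Neo minus Neo2/- was -0.05 (SE 0.10). WT and Neo2/+ were also close (Neo2/+ minus WT -0.04), and the choice of the tiers on this signal fixes both. The intermediate arrays stayed above the 4 arrays of the lowest genotypes, which read 5.04 and 5.20 in Neo/Neo and 4.98 and 5.16 in -/-. The Neo2/Neo2 arrays, outside the 2 tiers, read 6.62 and 6.62, between the 2 WT arrays. The signal of this probe set was thus not lower than WT in embryos with 2 Neo2 copies, and why was not tested. RMA values carry no detection call, so how much of the signal near 5 in -/- embryos is background was not tested. The position of the Tbx1 probe set relative to the change in each allele was not examined. In bulk RNA of whole embryos, fewer cells of a type and less RNA per cell cannot be told apart, for Tbx1 and for every other gene described here.

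**Figure D1:**
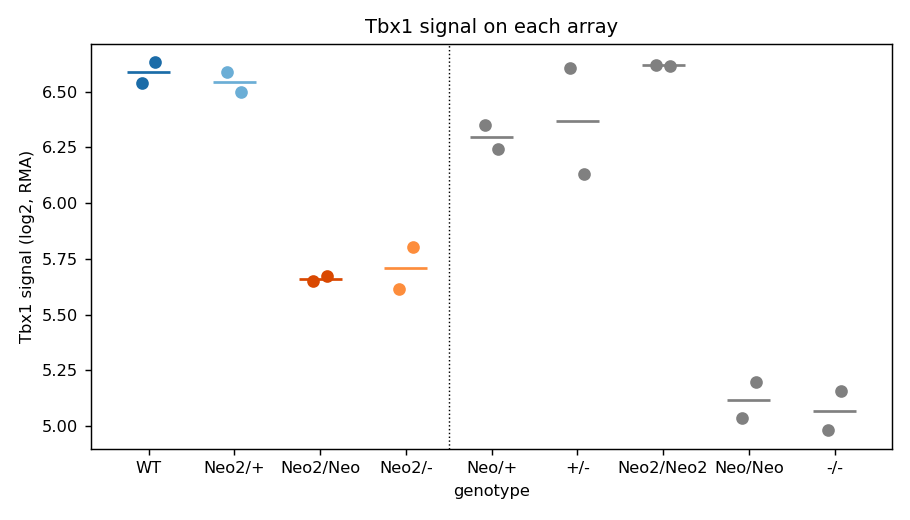
Tbx1 signal (log2, RMA) on each of the 18 arrays by genotype, with a dot for an array and a bar for the mean of 2 arrays. The genotypes of the full and intermediate tiers lie left of the dotted line. The intermediate arrays lie between 5.61 and 5.81 and the full-tier arrays between 6.50 and 6.63.

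Apart from Tbx1, the genes called between the tiers by the test across all probe sets were higher in the intermediate tier. limma called 8 of 45037 probe sets (0.0178%) at an adjusted p under 0.05, with 7 higher (0.0155%) and 1, Tbx1, lower (0.00222%). The named ones that rose were Hemgn, a nuclear protein of erythroid and haematopoietic cells, Igf1, the insulin-like growth factor, Ttr, the thyroid hormone and retinol carrier, Alb, the plasma albumin, and Rgcc, a regulator of the cell cycle. A probe set without a gene name and a probe set shared by several genes also rose. At an unadjusted p under 0.05 there were 4745 probe sets (10.5%).

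The 2 tiers overlapped in 3 of the 8 called probe sets, because the test measures the spread within genotypes and a tier holds 2 genotypes that can lie apart. In all 8, the difference from the full tier was larger in Neo2/Neo than in Neo2/-. With the spread measured within tiers instead (2 tier means), only Tbx1 was called, and the limma adjusted p of the other named genes lay between 0.45 and 0.529. The call also rested on few arrays, with 0 calls when WT replicate 1, a Neo2/+ array or Neo2/Neo replicate 1 was left out. There was 1 without Neo2/Neo replicate 2, and there were 4 without Neo2/- replicate 2, 18 without Neo2/- replicate 1 and 64 without WT replicate 2.

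Hemgn read 9.20 and 9.10 in WT, 8.21 and 8.07 in Neo2/+, 9.81 and 9.78 in Neo2/Neo and 9.07 and 9.20 in Neo2/-. The tier difference was 0.82 (SE 0.07, limma adjusted p = 0.0423). The Neo2/- arrays were at the level of the WT arrays, and the Neo2/+ arrays were the lowest of the 8, so the tiers overlapped. Relative to the full-tier mean the difference was 1.15 in Neo2/Neo and 0.49 in Neo2/-.

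Alb read 6.48 and 6.75 in WT, 6.39 and 6.37 in Neo2/+, 8.13 and 7.91 in Neo2/Neo and 6.96 and 6.71 in Neo2/-. The tier difference was 0.93 (SE 0.09, limma adjusted p = 0.0464), made of 1.52 in Neo2/Neo and 0.34 in Neo2/-. The lower Neo2/- array lay below the higher WT array, so the tiers overlapped here too.

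Ttr read 7.33 and 7.59 in WT, 7.27 and 7.44 in Neo2/+, 8.85 and 8.78 in Neo2/Neo and 7.79 and 7.64 in Neo2/-. All 4 intermediate arrays lay above the full tier, by little in Neo2/-, and the difference of 0.86 (SE 0.08, limma adjusted p = 0.0464) split into 1.41 and 0.31. The other 3 Ttr probe sets differed by 0.49, 0.81 and 0.82 and were not called.

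The called Igf1 probe set read 8.27 and 8.30 in WT, 8.09 and 8.0 in Neo2/+, 9.17 and 9.24 in Neo2/Neo and 8.40 and 8.42 in Neo2/-. The tiers did not overlap, and the difference was 0.64 (SE 0.06, limma adjusted p = 0.0423), with 1.04 in Neo2/Neo and 0.24 in Neo2/-. The other 3 Igf1 probe sets, the brightest included, differed by 0.40, 0.52 and 0.60 and were not called.

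Rgcc was the named called gene whose 2 intermediate genotypes were most alike after Tbx1. Its called probe set read 5.03 and 5.19 in WT, 4.91 and 5.03 in Neo2/+, 5.84 and 5.88 in Neo2/Neo and 5.58 and 5.57 in Neo2/-, without overlap. The difference was 0.67 (SE 0.07, limma adjusted p = 0.0464), with 0.81 and 0.53 in the 2 genotypes. The brighter Rgcc probe set differed by 0.42 and was not called.

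The unnamed probe set read 6.36 and 6.46 in WT, 7.14 and 7.16 in Neo2/+ and between 7.48 and 7.68 in the 4 intermediate arrays. Its difference of 0.78 (SE 0.07, limma adjusted p = 0.0423) thus included a step between WT and Neo2/+. Values of 7.22 or more were also seen in 9 of the 10 arrays outside the 2 tiers.

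**Figure D2:**
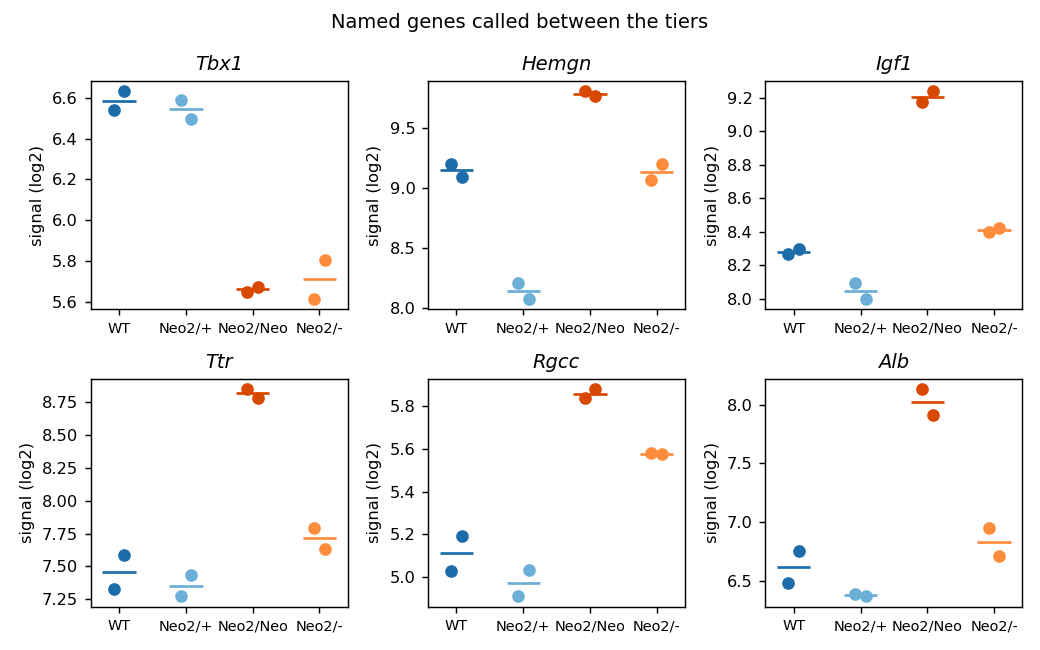
Signal (log2) of the 6 named genes called between the tiers, with a panel for each gene, a dot for an array, a bar for the mean of 2 arrays and separate vertical scales. Tbx1 is at the same level in both intermediate genotypes, while Hemgn, Igf1, Ttr and Alb lie higher in Neo2/Neo than in Neo2/-.

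The sequence before the start of these genes was set against the T-box element, since Tbx1 binds DNA through its T-box. RefSeq promoters (GRCm38.p6, 250 bases before to 50 after the start) were found for 25 of the 30 genes that were called or moved alike. The 7 letters GGTGTGA, on either strand (TCACACC on the other), occurred in 2 of the 25 (8%), Hemgn and Ankrd40. Over all genes with a promoter in the table they occurred in 1244 of 27025 (4.6%). The 250 bases before the start of Hemgn and Ankrd40 are shown for their match, and those of Alb and Igf1 for comparison, 5′ to 3′ on the strand of the gene, with the matching letters in capitals.
Hemgn (chr4:46404184-46404433, minus strand, GRCm38.p6): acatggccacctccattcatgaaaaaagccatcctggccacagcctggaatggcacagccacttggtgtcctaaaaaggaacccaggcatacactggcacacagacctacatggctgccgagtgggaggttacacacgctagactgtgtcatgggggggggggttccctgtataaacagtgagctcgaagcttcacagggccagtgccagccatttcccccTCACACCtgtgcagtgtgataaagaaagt
Ankrd40 (chr11:94327751-94328000, plus strand, GRCm38.p6): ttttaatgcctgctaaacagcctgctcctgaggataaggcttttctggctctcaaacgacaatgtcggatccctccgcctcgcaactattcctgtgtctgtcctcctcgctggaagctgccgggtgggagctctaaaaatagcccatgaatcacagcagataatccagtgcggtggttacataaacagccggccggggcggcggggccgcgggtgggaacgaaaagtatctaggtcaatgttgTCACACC
Alb (chr5:90460620-90460869, plus strand, GRCm38.p6): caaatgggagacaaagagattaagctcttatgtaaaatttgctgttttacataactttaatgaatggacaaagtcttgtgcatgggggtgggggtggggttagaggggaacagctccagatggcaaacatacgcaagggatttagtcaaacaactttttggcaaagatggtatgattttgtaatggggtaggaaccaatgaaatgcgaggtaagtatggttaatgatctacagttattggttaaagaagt
Igf1 (chr10:87860861-87861110, plus strand, GRCm38.p6): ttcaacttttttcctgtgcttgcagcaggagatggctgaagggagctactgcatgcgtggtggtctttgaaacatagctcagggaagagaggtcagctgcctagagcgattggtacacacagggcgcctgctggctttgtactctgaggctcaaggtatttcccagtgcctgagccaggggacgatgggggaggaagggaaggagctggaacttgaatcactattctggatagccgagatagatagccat
In Hemgn and Ankrd40 the match read TCACACC on the strand of the gene. Those letters were not in the windows of Alb and Igf1. A match of 7 letters describes the window and nothing about binding.

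Among the 46 probe sets that moved alike, 23 were higher and 23 lower in the intermediate tier (0.0511% of the array each). The higher ones differed from the full tier by 0.53 to 1.34 (median 0.71) and the lower ones by -2.89 to -0.55 (median -0.66). Of the 46, 26 had a single gene name, 3 were shared by several genes and 17 had none in the annotation. Over the array, the tiers did not overlap in 2000 of 45037 probe sets (4.44%), with 1067 higher (2.37%) and 933 lower (2.07%), so that most separations were smaller than the size the rule asked for. The members just inside that size were Tceanc2, Slc1a5 and Klhl24, whose smaller genotype difference was 0.52, 0.52 and 0.51. The probe sets just outside were those of Rpap1 (0.50), Fech (0.49) and an unnamed probe set (0.49).

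The members covered a range of weak to moderate signals. The mean signal was under 5 in 13 of the 46, and the median member had 5.76, next to 5.81 over all probe sets. Only 3 of the 46 were called by limma between the tiers (Tbx1, Rgcc and the unnamed probe set), and the adjusted p of the other members lay between 0.0552 and 0.381. Only 5 of the 26 named members were the brightest probe set of their gene. These 5, of 18193 genes (0.0275%), were Fn3krp, Gm38983 and Ube2l6, which were higher (0.0165%), and Tbx1 and Cap1, which were lower (0.011%).

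Fn3krp, a kinase that acts on sugar-modified proteins, had the largest difference among the higher brightest probe sets. It read 4.06 and 3.95 in WT, 4.08 and 3.65 in Neo2/+, 4.94 and 5.57 in Neo2/Neo and 4.81 and 4.77 in Neo2/-. The lowest intermediate array lay well above the highest full-tier array, and the tier difference of 1.09 (SE 0.15, limma adjusted p = 0.074) did not pass the test. Outside the 2 tiers, Fn3krp was also at 5.54 and 4.86 in Neo/+ and at 5.56 and 5.71 in Neo/Neo, and at 3.80 to 4.39 in +/-, -/- and Neo2/Neo2. The high values were thus in every array with a Neo allele and in the Neo2/- arrays.

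Gm38983, a predicted gene, read 4.77 and 4.48 in WT, 4.19 and 4.52 in Neo2/+, 5.29 and 5.53 in Neo2/Neo and 4.81 and 5.51 in Neo2/-. The lowest Neo2/- array was only just above the highest WT array, and the difference was 0.80 (SE 0.16, limma adjusted p = 0.2). It too was higher in Neo/+ (5.49 and 5.19) and Neo/Neo (5.50 and 5.03) than in the other 6 arrays outside the tiers, which read 3.79 to 4.56.

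Ube2l6, an enzyme that conjugates the interferon-induced ubiquitin-like protein Isg15, read 5.33 and 5.55 in WT, 5.05 and 5.43 in Neo2/+, 6.10 and 6.17 in Neo2/Neo and 5.59 and 6.34 in Neo2/-. The gap between the tiers was narrow, from 5.55 to 5.59, and the difference was 0.71 (SE 0.16, limma adjusted p = 0.253).

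Cap1, an actin-binding protein that recycles actin monomers, had the largest difference and the widest spread of these 5 probe sets. It read 10.35 and 9.81 in WT, 9.70 and 10.54 in Neo2/+, 9.65 and 7.48 in Neo2/Neo and 7.61 and 7.63 in Neo2/-. The 2 tiers were separated by the gap between 9.65 and 9.70 only, as Neo2/Neo replicate 1 stood with the full tier. The tier difference was -2.01 (SE 0.43, limma adjusted p = 0.215), and the other Cap1 probe set gave -2.01 as well. Among the other 10 arrays Cap1 took the same 2 kinds of level within single genotypes, such as 7.46 and 9.62 in Neo/+ and 9.65 and 7.75 in -/-. The high and low levels of Cap1 therefore did not follow the Tbx1 signal from array to array.

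The other 21 named members were dimmer probe sets of genes whose brightest probe set was elsewhere. The brightest probe set differed in the same direction in 17 of the 21, by at least 0.3 in both intermediate genotypes in 5 and by at least 0.5 in 1. limma called 0 of these 21 brightest probe sets between the tiers. An unadjusted p under 0.05 was more frequent than over all genes, in 6 of the 21 next to 9.29%. Another probe set of each gene had been chosen on the same arrays, so this is a description. The genes in the rest of this account of dimmer probe sets were chosen after their values were seen, to show where probe sets of a gene gave the same difference and where not.

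In 3 of these genes the brightest probe set also differed by more than 0.5, in the direction of the member. Dner, a neuronal Notch ligand, had 1.15 in the member and 0.71 in the brightest probe set. The member read 3.91 to 4.50 in the full tier, 6.00 and 6.05 in Neo2/Neo and 4.99 and 4.69 in Neo2/-. Chaserr, a long non-coding RNA next to the chromatin remodeller Chd2, had 0.87 and 0.55, and its member read 6.61 to 7.60 in the full tier against 7.65 to 8.04 in the intermediate tier. Slc1a5, a glutamine transporter, had -0.58 in the member and -1.46 in the brightest probe set.

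The brightest Slc1a5 probe set also held 2 kinds of level. It read 7.05 to 7.90 in the full tier, 6.00 and 5.73 in Neo2/Neo and 7.24 and 5.79 in Neo2/-, so the tiers overlapped there. Outside the tiers it read 5.90 and 5.93 in Neo/+ and 6.06 and 6.16 in Neo/Neo, but 7.23 to 8.16 in +/-, -/- and Neo2/Neo2. As with Fn3krp, every array with a Neo allele was on the same side.

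In other genes the brightest probe set differed far less than the member. Zc3h4, a zinc finger protein that limits non-coding transcription, had the largest lower difference of all members (-2.89), while its brightest probe set differed by -0.02. The member read 8.17 and 6.81 in WT, 8.26 and 8.44 in Neo2/+, 4.47 and 4.65 in Neo2/Neo and 6.70 and 4.29 in Neo2/-. It was also low, at 4.14 to 4.41, in the arrays of Neo/+ and Neo/Neo, and at 6.97 to 8.58 in +/-, -/- and Neo2/Neo2.

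Lin28a, the RNA-binding repressor of let-7 processing, had -2.06 in the member and -0.25 in the brightest probe set. The member read 8.35 to 9.26 in the full tier, 7.38 and 5.86 in Neo2/Neo and 6.65 and 6.86 in Neo2/-. The brightest Lin28a probe set differed by -0.91 in Neo2/Neo and by 0.41 in Neo2/-, in opposite directions. Hnrnpr, an RNA-binding protein of nuclear ribonucleoproteins, had 1.34 in the member and 0.13 in the brightest probe set. Smo, the signal transducer of the hedgehog pathway, had -0.63 in a member with signals of 3.60 to 4.80 and 0.03 in the brightest probe set, whose mean was near 9.8. The values of such members describe a probe set rather than the gene.

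**Figure D3:**
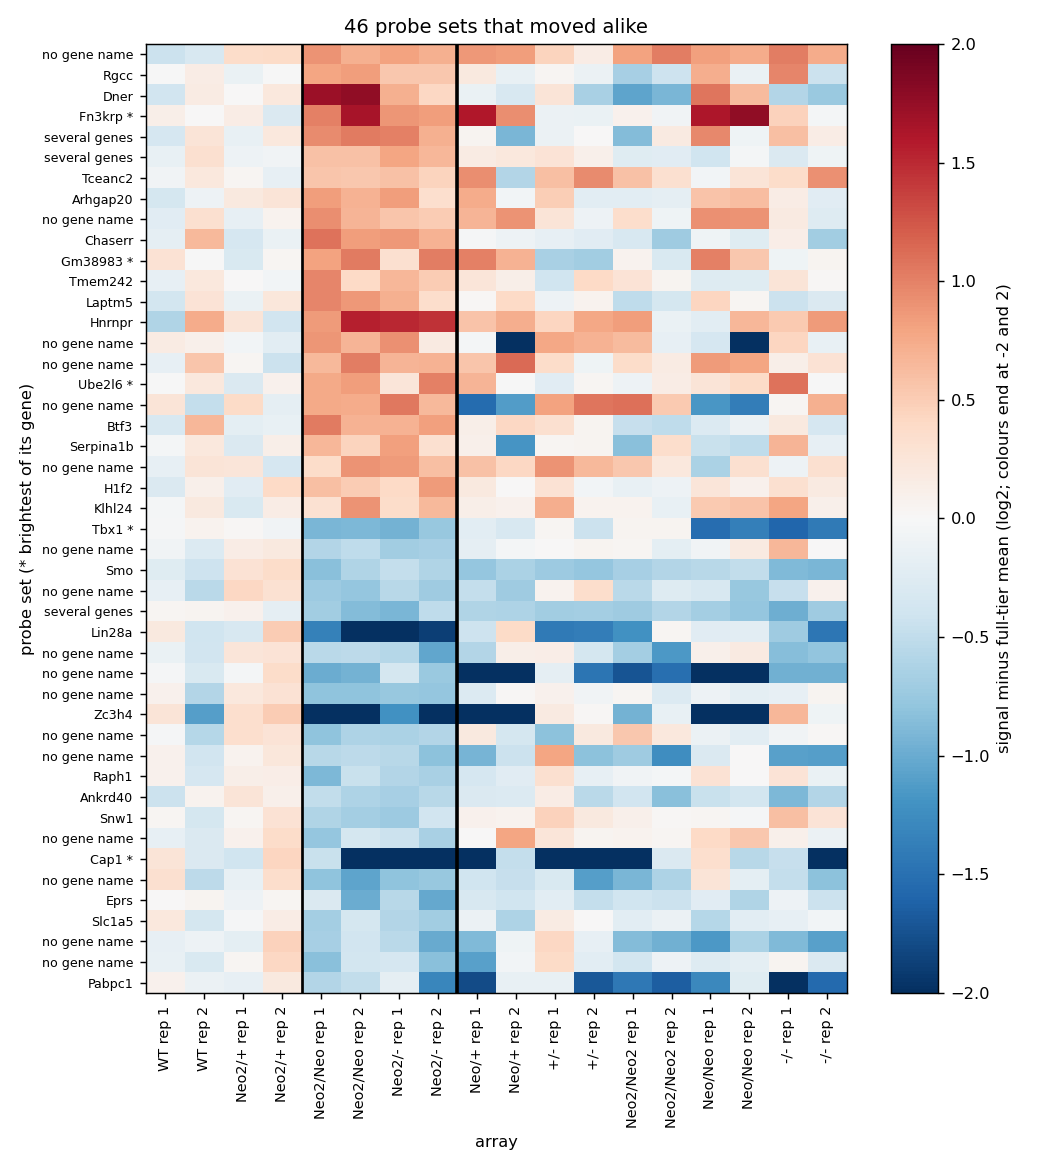
Signal of the 46 probe sets that moved alike (vertical axis, with an asterisk for the brightest probe set of a gene) on the 18 arrays (horizontal axis), as the log2 difference from the full-tier mean, with colours ending at -2 and 2. The first 4 columns are the full tier and the next 4 the intermediate tier. The rule fixes the contrast between those 8 columns, while the other 10 columns, which it did not use, show mixed colours in most lines.

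How alike the intermediate genotypes were is in part fixed by the rule, so their remaining difference is a description. In 31 of the 46 members the difference from the full tier was larger in size in Neo2/Neo. The difference between the 2 genotypes had a median size of 0.14.

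With a size of at least 0.3 in place of 0.5, and the brightest probe set of each gene, 75 of 18193 genes moved alike. Of these, 56 were higher and 19 lower. Without any size, the tiers did not overlap in 799 genes (4.39%). Serpini1, the neuronal inhibitor of tissue plasminogen activator, differed by 0.63, with 0.91 in Neo2/Neo and 0.36 in Neo2/-. Bcl11b, a zinc finger transcription factor of T cells and neurons, differed by 0.74, with 1.17 and 0.31. Alad, an enzyme of haem synthesis, differed by 0.49 in each intermediate genotype, with 10.20 and 10.21 in the WT arrays and 9.37 and 9.41 in the Neo2/+ arrays. These 3 had limma adjusted p-values above 0.05 and were picked by p after the values were seen, as were Npas3, a transcription factor of neural progenitors (0.64), and Rpl27a, a ribosomal protein (-0.46).

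Gene lists were then read for what the intermediate tier shared beyond single genes, with the brightest probe set of each gene. Over all 18193 genes, 9366 (51.5%) were higher in the intermediate tier and the median difference was 0.00. Between the tiers 512 genes (2.81%) lay wholly above and 287 (1.58%) wholly below. Of 24 lists, 21 had no gene called by limma, and the lists of blood, yolk sac endoderm and cranial mesoderm had the 4 calls in lists (Hemgn, Ttr, Alb and Tbx1).

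Genes of neurons and neural progenitors were higher in nearly every case. Of 29 measured, 28 (96.6%) had a higher mean in the intermediate tier and the median difference was 0.34. However, limma called 0, with 16 (55.2%) at an unadjusted p under 0.05, next to 9.29% of all genes. Wholly above the full tier lay 1 of the 29 (3.45%), near the 2.81% of all genes. The median was 0.51 in Neo2/Neo and 0.14 in Neo2/-. Lhx1, a LIM homeobox factor of interneurons, differed by 1.05 (SE 0.19), Stmn3, a microtubule regulator of axons, by 0.60 (SE 0.14), Map2, a dendritic microtubule protein, by 0.57 (SE 0.15) and Chl1, a neural adhesion molecule, by 0.57 (SE 0.13), with limma adjusted p-values of 0.166 to 0.287. Lhx1 rose in Neo2/Neo against the full tier (1.80, limma adjusted p = 0.0291) and had 0.29 in Neo2/-. The linear signals of the list summed to 11590 to 12810 on the full-tier arrays, to 18087 and 18196 in Neo2/Neo and to 15808 and 11111 in Neo2/-, so a Neo2/- array lay below the whole full tier.

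Primitive erythroid genes were higher against Neo2/+ but not against WT. Of 18 measured, 16 were higher in the intermediate tier and the median difference was 0.34. limma called 1 (Hemgn), and 14 (77.8%) were at an unadjusted p under 0.05, next to 9.29% of all genes. Against WT alone the median was 0.02, with 9 of 18 higher, and against Neo2/+ alone it was 0.70, with 16 of 18 higher. Within the full tier the median of Neo2/+ minus WT was -0.72. Slc4a1, the anion exchanger of red cells, had 10.29 in WT, 9.40 in Neo2/+, 10.78 in Neo2/Neo and 10.39 in Neo2/- (means of 2 arrays), and a tier difference of 0.75 (limma adjusted p = 0.0552). Rhag, a red cell membrane protein, differed by 0.63 and Ermap, an erythroid membrane protein, by 0.51. The embryonic globins Hbb-bh1 and Hbb-y, near the top of the signal range of the array, differed by 0.10 and 0.09. The list summed to 55435 and 56049 in the Neo2/+ arrays and to 63633 to 70586 in the other 6.

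Genes of the visceral yolk sac endoderm, which also mark early liver, held the 2 called genes Ttr and Alb. Of 19 measured, 12 were higher and the median was 0.16, with 0.30 in Neo2/Neo and 0.11 in Neo2/-. At an unadjusted p under 0.05 in limma, 8 were higher and 2 lower (52.6%), next to 9.29% of all genes. Afp, the alpha-fetoprotein, differed by 1.01 (SE 0.12, limma adjusted p = 0.0586), with 1.56 in Neo2/Neo and 0.47 in Neo2/-, and Rbp4, the retinol-binding protein, by 0.41. The summed signal was 1723 to 2456 in the full tier, 4275 and 4292 in Neo2/Neo and 2466 and 2338 in Neo2/-. Cubn and Amn, the receptor pair that takes up protein in yolk sac endoderm, differed by 0.01 and -0.28, and the transcription factor Hnf4a by -0.05. How much tissue outside the embryo proper was in each sample was not tested. Placental and decidual genes summed to 795 to 968 in the full tier and 739 to 978 in the intermediate tier, and 2 of 16 were higher.

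Cardiomyocyte genes were lower in most cases, with 3 of 20 higher, a median of -0.15 and 0 called by limma. At an unadjusted p under 0.05 there were 6 (30%), next to 9.29% of all genes. Myl7, the atrial myosin light chain, differed by -0.33, with -0.61 in Neo2/Neo and -0.05 in Neo2/-. Myh6 and Myh7, the myosin heavy chains of the heart, differed by -0.30 and -0.22. Summed signals were 16980 to 17790 in the full tier and 14110 to 18020 in the intermediate tier, which overlap.

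Genes of macrophages and platelets had a median of 0.09, with 15 of 17 higher, 0.20 in Neo2/Neo and 0.02 in Neo2/-. Against WT alone the median was -0.05, with 7 of 17 higher, and against Neo2/+ alone it was 0.29, with 16 of 17 higher. p53 target genes had a median of 0.08, with 14 of 19 higher and 0 called by limma. At an unadjusted p under 0.05 there were 7 (36.8%), next to 9.29% of all genes. Of the 19, 3 (15.8%) lay wholly above the full tier, next to 2.81% of all genes. Their summed signals did not overlap, at 5884 to 6468 in the full tier and 6654 to 6817 in the intermediate tier. This was not particular to p53 targets. The sums of the BMP pathway, the hedgehog pathway, the second heart field and the otic vesicle and placodes were also higher without overlap. Pmaip1, a cell death gene, differed by 0.56, Trp53inp1 by 0.30 and Bbc3, which encodes the cell death protein Puma, by 0.23.

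Genes tied to Tbx1 had a median difference of 0.05, next to 0.00 over all genes. Of 42 genes linked to Tbx1 as targets, partners or interacting genes, limma called 0, with 7 (16.7%) at an unadjusted p under 0.05, next to 9.29% of all genes at that level. Of the 42, 27 were higher. Wholly above the full tier lay 2 (4.76%), next to 2.81% of all genes, and wholly below it 3 (7.14%), next to 1.58%. Gsc, a homeobox factor of the head, differed by 0.43 (0.76 in Neo2/Neo, 0.11 in Neo2/-), Srf, the serum response factor, by -0.20, Dlx5, a homeobox factor of the arches, by -0.26 and Robo1, an axon guidance receptor, by 0.33.

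Cranial mesoderm and branchiomeric muscle, the list that holds Tbx1, had 14 genes, of which 11 were higher. Tbx1, whose difference the choice of the tiers fixed, was the gene called. At an unadjusted p under 0.05 in limma, 4 were higher and 1, Tbx1, lower (35.7%), next to 9.29% of all genes. Wholly above the full tier lay 2 (14.3%), next to 2.81% of all genes, and wholly below it 1, Tbx1 (7.14%), next to 1.58%. Ebf3, a transcription factor of head mesenchyme, differed by 0.39, with 0.71 in Neo2/Neo and 0.07 in Neo2/-, and Myf5, the myogenic factor, by 0.31, with 0.35 and 0.27 and all 4 intermediate arrays above the full tier. The lists of the second heart field (20 genes), pharyngeal endoderm and pouches (18), FGF signalling (23), the retinoic acid pathway (21), the BMP pathway (23), the hedgehog pathway (17) and the chromosomal neighbours of Tbx1 (31) had 0 calls by limma and medians from -0.01 to 0.06. At an unadjusted p under 0.05 they had 3, 4, 1, 4, 2, 0 and 1 genes (15%, 22.2%, 4.35%, 19%, 8.7%, 0% and 3.23%), next to 9.29% of all genes. Fgf3, a growth factor of the pharynx and otic region, was below the full tier on all 4 intermediate arrays by -0.18 in both genotypes. Hoxb1, which patterns the hindbrain and posterior heart field, differed by -0.37, and fell in Neo2/Neo against the full tier (-0.77, limma adjusted p = 0.035) with 0.04 in Neo2/-.

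**Figure D4:**
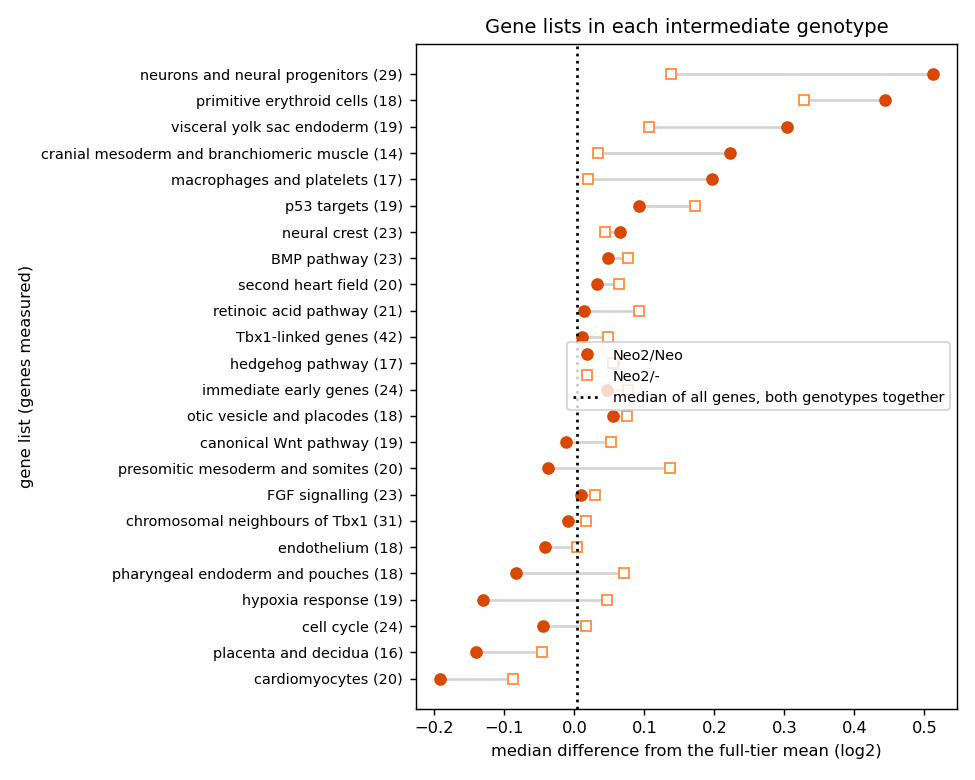
Median log2 difference from the full-tier mean in Neo2/Neo (filled circles) and Neo2/- (open squares) for each of the 24 gene lists, with the number of measured genes in brackets and the median of all genes as a dotted line. In Neo2/Neo the lists of neurons, erythroid cells and yolk sac endoderm lie farthest to the right, in Neo2/- those of erythroid cells and p53 targets, and neurons show the widest gap between the genotypes.

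The 2 intermediate genotypes, alike in Tbx1, had different numbers of calls when each was set against the full tier. Against the full tier, limma called 153 of 45037 probe sets in Neo2/Neo (0.34%), with 127 higher (0.282%) and 26 lower (0.0577%), and 4914 (10.9%) had an unadjusted p under 0.05. In Neo2/- it called 0 (0%), with 3625 (8.05%) at an unadjusted p under 0.05 and a lowest adjusted p of 0.343. The 2 comparisons share their control arrays. The count for Neo2/Neo moved with single arrays, to 1 and 2 without Neo2/Neo replicates 1 and 2, to 50 and 57 without a Neo2/+ array, to 66 without WT replicate 1 and to 285 without either Neo2/- array. The count for Neo2/- became 47 without Neo2/- replicate 1, and 2 without Neo2/- replicate 2 or WT replicate 2.

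The direct test of Neo2/Neo against Neo2/- called 21 probe sets (0.0466%), with 16 higher (0.0355%) and 5 lower (0.0111%) in Neo2/Neo. At an unadjusted p under 0.05 there were 3610 (8.02%). F13a1, a clotting factor subunit made by macrophages and platelets, read 5.98 and 6.02 in Neo2/Neo and 4.55 and 4.58 in Neo2/-, and the full tier lay between 4.24 and 5.04 (difference 1.43, limma adjusted p = 0.0266). C1qb, a complement chain made by macrophages, read 6.58 and 6.30 against 5.06 and 4.68 (1.57, limma adjusted p = 0.0292). Supt16, a subunit of the histone chaperone FACT, rose by 1.13, Fibin, a secreted protein of limb fin initiation, by 1.17 and Pttg1, securin, by 0.87. Outside the tiers, Supt16 and Pttg1 were higher still in the 4 Neo/+ and Neo/Neo arrays. Supt16 read 11.96 to 12.17 there, next to 11.21 and 11.26 in Neo2/Neo, and Pttg1 12.70 to 12.75, next to 12.33 and 12.29. Arrays without a Neo allele also reached the Neo2/Neo level, with Supt16 at 11.22 in Neo2/Neo2 replicate 1 and Pttg1 at 12.36 in -/- replicate 1.

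The named genes that were lower in Neo2/Neo were Rpgrip1, Nr6a1, Wfikkn1 and Prtg. Rpgrip1, a protein of the photoreceptor cilium, read 10.45 and 10.31 in Neo2/Neo and 11.47 to 11.58 on the other 6 arrays of the tiers. In the Neo/+ and Neo/Neo arrays it was lower than in Neo2/Neo, at 6.49 to 6.94, and +/- replicate 1 was at 6.24. Neo2/Neo2 replicate 1, without a Neo allele, read 10.51, near the Neo2/Neo arrays. Nr6a1, a nuclear receptor of the early embryo and trunk, differed by -0.99 (limma adjusted p = 0.0408), Wfikkn1, a binding protein of growth and differentiation factors, by -1.19 and Prtg, protogenin, a receptor of early neural and mesodermal cells, by -1.02. Arg1, the urea cycle arginase, had -0.69 and did not pass (limma adjusted p = 0.0552). In Neo2/-, Supt16 had -0.31 against the full tier, and the other genes of this comparison named here were between -0.14 and 0.09.

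Of the genes called between the tiers, Igf1, Ttr and Alb also differed between the intermediate genotypes, by 0.80, 1.10 and 1.19 (limma adjusted p = 0.0408, 0.0408 and 0.0429). Hemgn did not pass (0.66, limma adjusted p = 0.0944), nor did Rgcc (0.28, limma adjusted p = 0.519). The count of 21 fell to 0 when a Neo2/+ array was left out, to 3 and 1 without Neo2/Neo replicates 1 and 2 and to 2 without Neo2/- replicate 2, and was 243 without Neo2/- replicate 1.

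The full tier was itself made of 2 genotypes, and limma called 0 of 45037 probe sets (0%) between Neo2/+ and WT, with 4554 (10.1%) at an unadjusted p under 0.05. The genes with the smallest p included Hemgn (-1.01), Alad (-0.81) and Slc4a1 (-0.89), all of red cells, and Kcnq5, a potassium channel (-1.78), with lower values in Neo2/+. Oc90, an otoconial protein, had -0.67. On the higher side were Tmco6 (0.62), Palm2 (0.62), Mb21d2 (0.58), Rdh13 (0.45) and Rmnd1 (0.51). Hemgn had the lowest limma adjusted p, 0.129. Without WT replicate 2 there were 15 calls.

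The sex of each embryo, read from Xist and Y-linked genes, was not balanced, with 3 female and 1 male in the full tier and 2 of each in the intermediate tier. With sex as a covariate limma called 0 probe sets between the tiers. The tier differences of Tbx1, Hemgn, Igf1, Ttr, Rgcc and Alb were then -0.89, 0.82, 0.64, 0.87, 0.66 and 0.97, with adjusted p-values of 0.138 to 0.158.

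A comparison that shares no array with the tiers was used to look at the members again. It set the lowest genotypes, Neo/Neo and -/-, against the heterozygotes Neo/+ and +/-, with 2 arrays each. Its Tbx1 difference was -1.24 (SE 0.13), again part of how the groups were chosen. limma called 1 of 45037 probe sets (0.00222%), a dim probe set of Lsm8, and 1243 (2.76%) had an unadjusted p under 0.05. Besides Tbx1, the genes with the smallest p included Sox11, a factor of neural progenitors, at -1.69 (limma adjusted p = 0.344), and Ctsf, a lysosomal protease, at 0.72 (limma adjusted p = 0.901). Sox11 read 9.52 and 9.40 in Neo/Neo but 11.76 and 11.56 in -/-, next to 11.80 to 12.51 in the heterozygotes. Ctsf was low in +/- (mean 5.29), next to means of 6.67 in Neo/+, 6.88 in Neo/Neo and 6.52 in -/-. Between the tiers Sox11 had -0.55 and Ctsf 0.55. There Sox11 was low only in Neo2/Neo replicate 1 (9.83). The other intermediate arrays read 11.86 to 12.87 and the full tier 12.05 to 12.76. Of the other brightest probe sets listed by smallest p, Gm6958 had -0.63 between the tiers and the rest -0.10 to 0.15.

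The members other than Tbx1 did not keep their direction there more often than other probe sets. Of 45, 24 (53.3%) differed in the same direction as between the tiers, next to 55.6% of all probe sets. limma called 0 of the 45. An unadjusted p under 0.05, in either direction, was more frequent among the members. It was met by 5 of the 45, next to 1243 of 45037 probe sets (2.76%). Among the 354 probe sets with a tier difference of at least 0.5, alike in both genotypes or not, 245 (69.2%) had the same direction. The first replicates of +/- and -/- were far from the rest of the series. With both left out the shares were 44.4%, 51.3% and 54.5%, and 0 probe sets (0%) were called, with 4.93% at an unadjusted p under 0.05. Probe sets are not independent of each other, so these shares are descriptions.

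Fn3krp, Gm38983 and Ube2l6 had higher means in the lowest genotypes too, by 0.38, 0.29 and 0.31, with limma adjusted p-values of 0.901. Without the first replicates of +/- and -/- the differences were 0.26, 0.34 and -0.03, so Ube2l6 did not keep its direction. Cap1 had the opposite direction, 1.31 higher, and 0.99 without those 2 arrays. Hemgn, Igf1, Ttr, Rgcc and Alb were also higher, by 0.39, 0.49, 1.00, 0.30 and 0.76, with SEs of 0.33 to 0.42. Without the 2 arrays far from the rest, the differences of Hemgn and Rgcc were -0.27 and -0.02, and those of Igf1, Ttr and Alb 0.17, 0.76 and 0.41. In these 5 genes -/- replicate 1 was far above -/- replicate 2, as in Igf1 (9.11 and 7.66) and Ttr (8.69 and 7.64), so the spread within a genotype was as large as the difference.

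**Figure D5:**
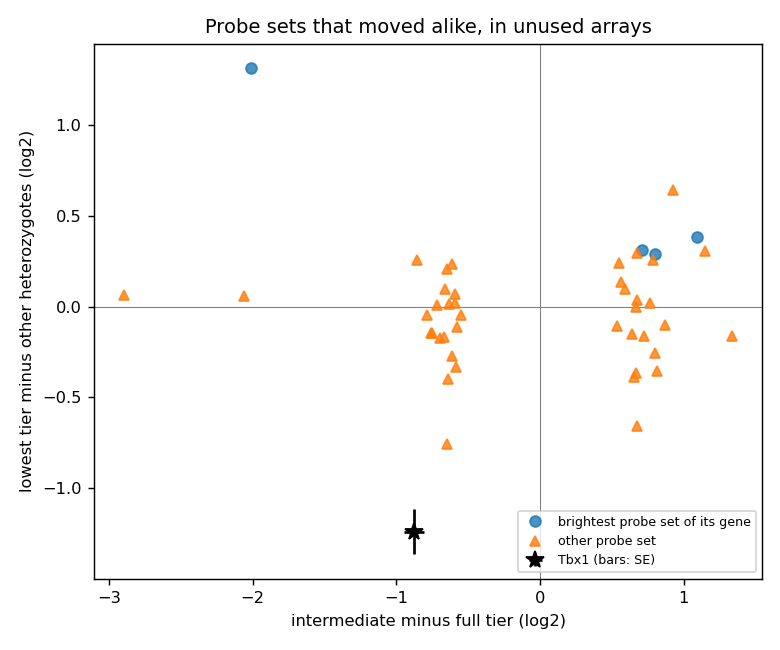
Log2 difference of the 46 members between the tiers (horizontal axis) and between the lowest genotypes and the other heterozygotes (vertical axis), which share no array. Circles are brightest probe sets, triangles other probe sets, and the star is Tbx1 with its SE. Tbx1 is lower in both, and the other members lie on both sides of 0 on the vertical axis.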

How the data were processed

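Total RNA of whole embryos was hybridised to Affymetrix mouse expression arrays, 18 in all. The deposited values are log2 probe set signals that the authors made by RMA in affy, per the submitters' processing notes. RMA includes background correction and quantile normalization over arrays. Versions and filters are not stated in the labels. The array number limits precision.

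The values were used as deposited. limma 3.58.1 (R 4.3.3) was fitted to the 8 arrays with 4 genotype means (4 residual degrees of freedom and 4.05 from the prior), and p-values were adjusted by Benjamini-Hochberg over 45037 probe sets, with a call at adjusted p under 0.05. Of these, 34945 had a single gene symbol (18193 genes), 932 several and 9160 none, and 34741 were matched to RefSeq. The brightest probe set stood for a gene. On simulated data for the comparison of the tiers, over 45037 probe sets, 44.8% of 67 changes of 0.5, 86.6% of 67 changes of 1 and 100% of 66 changes of 2 (log2) were recovered, with 6 false calls. These shares hold for the simulated spread and not for every probe set of the arrays. Fn3krp at 1.09 and Cap1 at -2.01, for example, were not called.

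Named genes were Tbx1, the called genes, up to 15 per direction of the brightest probe sets that moved alike, up to 5 per direction in the other tests and up to 4 per list by smallest p. Others are marked in the text. The members and lists were chosen with earlier results of these data known. Alternatives varied the arrays, the scaling, the filter, the spread and the covariates.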

Additional observations from a re-analysis of the deposited data

Results flagged for a closer look

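Cap1 in the intermediate tier had an array far from the other 3. Neo2/Neo replicate 1 read 9.65 and the nearest of the others 7.63, so the gap was 0.928 of the range, above the limit of 0.829 for 4 samples. Of 20 groups looked at, 1 was beyond the limit, and chance gives about 1 in 20.

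Igf1, Ttr and Alb differed between the intermediate genotypes in the direct test. Neo2/Neo minus Neo2/- was 0.80 in Igf1, 1.10 in Ttr and 1.19 in Alb, with limma adjusted p-values of 0.0408, 0.0408 and 0.0429, and in each gene both Neo2/Neo arrays lay above both Neo2/- arrays.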

How the results depend on the processing

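The tier difference of Tbx1 kept its direction and size under every alternative run, from -0.93 to -0.83 when an array was left out. The number of calls between the tiers did not keep its value. From 8 it went to 3 with all 18 arrays in the fit, 1 with 2 tier means, 0 with the replicate block, 0 with embryo sex as a covariate, 24 with array weights, 90 with an intensity trend, 21 with a mean signal of at least 5, 38 with arrays centred on the median, 15 with quantile normalization repeated and 0 to 64 when an array was left out. The 153 calls of Neo2/Neo against the full tier became 0 with all 18 arrays, 83 with sex and 1 to 285 when an array was left out, and the 0 calls of Neo2/- became 0 to 47. The 21 calls between Neo2/Neo and Neo2/- became 0 with all 18 arrays, 6 with the block, 0 with sex and 0 to 243 when an array was left out, and the 0 calls between Neo2/+ and WT 0 to 15. The 1 call of the lowest genotypes became 2 with all 18 arrays, 0 with a mean signal of at least 5, 0 without both arrays that stood apart and 0 to 1644 when an array was left out. The cause was not tested. An array left out leaves a genotype with a lone array, assumed to vary like the others.

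The 46 members became 274 at a size of 0.3, 14 at 0.7, 106 with WT alone as controls and 37 to 173 when an array was left out (173 without WT replicate 2). With arrays centred on the median, 43 of the 46 were among 52, and with quantile normalization repeated 39 were among 46. Over 10 named genes and 168 alternatives, 106 kept direction and side of the threshold, 61 lost the call, 1 gained it (Fn3krp with the intensity trend) and 0 reversed. Many of the 106 were of Fn3krp, Gm38983, Ube2l6 and Cap1, which were not called at first and stayed so. Of 17 alternatives each, Tbx1 kept its call in 10, Hemgn in 7 and Igf1, Ttr, Rgcc and Alb in 6. Same-numbered arrays correlated by -0.0237 to 0.173 in their deviations, so the numbers were not taken as pairs, and the block left 122 calls for Neo2/Neo against the full tier and changed none of the 0 counts. The alternatives of Neo2/Neo and Neo2/- against the full tier were chosen after seeing the data. Weak signals cannot be told from background.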
